A study of Mus musculus with 18 samples.

Results

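Collagen genes were followed in dorsal spinal cord (L3–5) of mice with and without an inflamed hindpaw. The members are the genes whose locus carries a single name of the form Col, a number, a and a number in the table of every vector, and for a name with several loci the locus with the highest mean was read. This gave 41 collagen genes of 18182 genes that the tables name singly, of which 11 code for fibrillar collagens, 8 for collagens of basement membranes (types IV, XV and XVIII) and 22 for other collagens. All mice were C57BL/6 by the labels (C57BL/6N in the methods), 3 months old, and had received a viral vector (rAAV) in the dorsal horn that carried LacZ as the control, HDAC4 wt, or HDAC4 3SA, a mutant that stays in the nucleus. Each vector was studied 24 h after intraplantar saline and 24 h after intraplantar CFA (Complete Freund's adjuvant, which inflames the paw), with 3 mice in each of the 6 groups and 18 mice in all. The controls thus carry a spinal injection and a vector too, and the promoter that drives the transgenes is not given in the sources used here.

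The tables give 1 FPKM value (fragments scaled to the exon length of the gene and to all mapped fragments) per gene and group, pooled by the authors over the 3 mice. The tables hold no value per mouse and no read counts, so no SD and no test is given for any value, and the authors' own test columns were not used. A change is therefore stated as the log2 of the CFA value over the saline value with 0.1 FPKM added to both, which understates the change of weakly expressed genes, and a gene is counted as higher or lower where this log2 change is beyond 0.5. Counts of genes past the threshold are read against the share of all 15741 singly named genes that reach 0.5 FPKM on average over the 6 group values and pass it. Each vector was normalized in a run of its own, and levels of different vectors are compared only as a description. In bulk tissue, fewer cells of a type and less RNA per cell cannot be told apart. Reads of the mouse gene Hdac4 came to 7.41 (saline) and 7.72 FPKM (CFA) with LacZ, 10.1 and 10.8 FPKM with HDAC4 wt, and 8.86 and 8.81 FPKM with HDAC4 3SA. As a check of the tissue, 8 neuronal markers summed to between 1207 and 1988 FPKM.

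Collagens are secreted or membrane-bound proteins in which 3 chains wind into a triple helix. Fibrillar collagens assemble into the fibrils that give connective tissue its strength, type IV collagen forms the sheet-like network of basement membranes, and the remaining types coat fibrils, form beaded filaments or sit in cell membranes. In the spinal cord, the parenchyma holds little fibrillar collagen, which is made mainly by fibroblasts of the meninges, of large vessels and of nerve roots, whereas vessel walls throughout the tissue carry a basement membrane with type IV collagen.

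Collagen transcripts covered a wide range of levels. Col1a2 had the highest mean over the 6 group values, 36.2 FPKM, 7 collagen genes averaged 10 FPKM or more, 14 averaged 5 FPKM or more, and 34 reached the minimum of 0.5 FPKM. The fibrillar class was the most abundant by summed FPKM, a level per length. In LacZ mice after saline its 11 genes summed to 73.4 FPKM, 43.0% of the 171 FPKM of all collagen genes, the 8 basement membrane genes to 34.1 FPKM and the 22 other genes to 63.2 FPKM. These shares hardly moved between groups. The fibrillar share lay between 43.0% and 45.7% and the basement membrane share between 19.3% and 21.6% over the 6 groups.

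**Figure D1:**
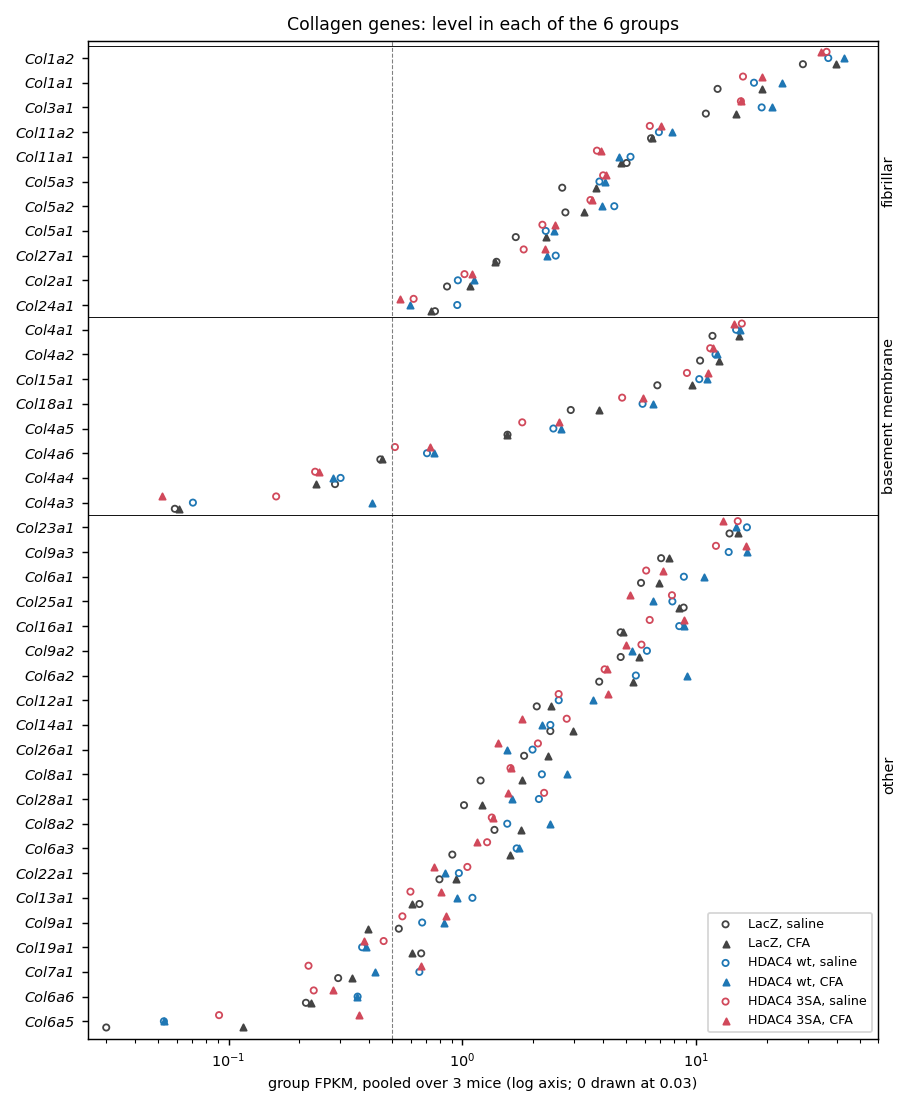
Level of 40 collagen genes, grouped by class, with 1 row per gene and the pooled FPKM of each group on a log axis; colors mark the vector, open circles saline and filled triangles CFA. Col1a2 is highest at 28.5 to 42.8 FPKM, all 11 fibrillar genes lie above the dashed line at 0.5 FPKM in every group, and the genes left of the line on average were kept out of the counts.

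After CFA, collagen genes were on the whole higher in LacZ mice and less so in mice that expressed either form of HDAC4. Of the 34 genes over the minimum, 27 had a higher value after CFA than after saline in LacZ mice (79.4%, against 53.0% of all genes), 22 with HDAC4 wt (51.1% of all genes) and 22 with HDAC4 3SA (52.9% of all genes). The median log2 change of the 34 genes was 0.26 with LacZ, 0.083 with HDAC4 wt and 0.039 with HDAC4 3SA, while that of all 15741 genes was 0.0096, 0.0037 and 0.013. Few collagen genes passed the threshold of 0.5. In LacZ mice 3 of 34 were higher, Col6a3, Col1a1 and Col8a1 (8.82%, against 4.43% of all genes), and 0 were lower (2.24% of all genes). In HDAC4 wt mice 2 were higher, Col6a2 and Col8a2 (5.88%, against 4.75%), and 1 was lower, Col24a1 (2.94%, against 3.06%). In HDAC4 3SA mice 3 were higher, Col12a1, Col9a1 and Col4a5 (8.82%, against 8.81%), and 3 were lower, Col14a1, Col25a1 and Col26a1 (8.82%, against 3.23%). Each gene counts for 2.94% of the 34, so all 6 shares lie within 2 genes of the background. In at least 1 vector, 12 of 34 collagen genes passed the threshold (35.3%, against 18.3% of all genes). No collagen gene passed it in more than 1 vector, whereas 6.75% of all genes did, a share that amounts to few genes in 34. Col4a5, at 0.505, lies at the threshold and falls just short of it once the median change of genes that average over 5 FPKM in the HDAC4 3SA table, 0.0063, is subtracted (0.499). With 1 FPKM added in place of 0.1 FPKM, 1 gene was higher in each vector and 1 was lower, with HDAC4 3SA. How far these changes exceed the spread between mice was not assessed here.

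The class medians had different orders across the vectors. Fibrillar genes had medians of the log2 change of 0.29 with LacZ, 0.12 with HDAC4 wt and 0.053 with HDAC4 3SA over 11 genes, and the other collagens 0.23, 0.033 and 0.00069 over 17 genes. Basement membrane genes had 0.32, 0.097 and 0.30 over 6 genes, so that their median in HDAC4 3SA mice was close to that in LacZ mice. With type XV and XVIII set aside, the 4 type IV genes had medians of 0.14, 0.068 and 0.23, and with all 8 genes of the class, whatever their level, the median was 0.15 with LacZ and 0.17 with HDAC4 3SA. The summed FPKM, which the abundant genes dominate, was 1.32-fold for fibrillar, 1.27-fold for basement membrane and 1.13-fold for other genes in LacZ mice. In HDAC4 wt mice it was 1.14-, 1.06- and 1.07-fold, and in HDAC4 3SA mice 1.03-, 1.08- and 1.03-fold in the same order.

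**Figure D2:**
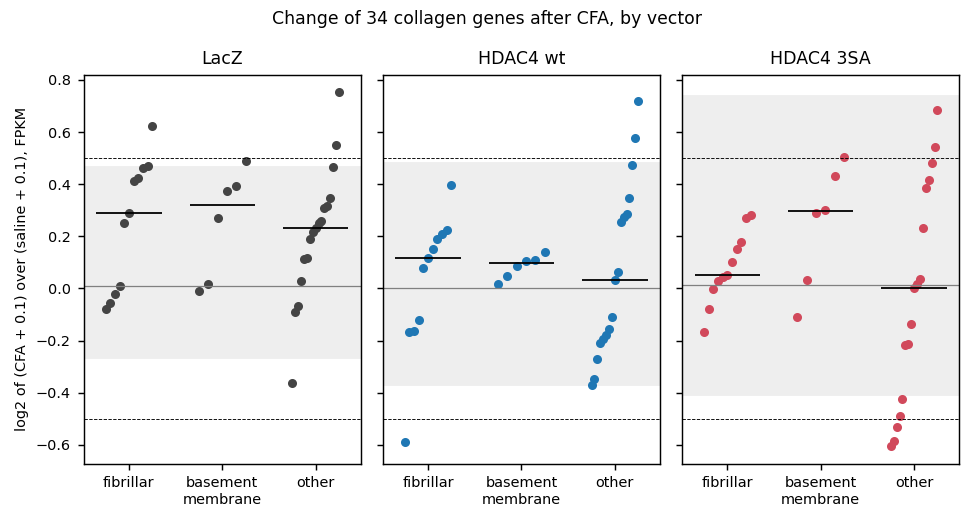
Log2 change after CFA of the 34 collagen genes that average 0.5 FPKM or more, 1 panel per vector and 1 point per gene, with a black bar at each class median, a grey band from the 5th to the 95th percentile of all genes, a grey line at their median and dashed lines at 0.5 and -0.5. Most points lie above the grey line in LacZ mice and spread to both sides of it in HDAC4 wt and HDAC4 3SA mice.

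Type I and type III collagen, the main fibril formers of connective tissue, were the 3 most abundant collagen genes. Col1a2, on chromosome 6 from 4504860 to 4541539 (GRCm38), had 28.5 (saline) and 39.4 FPKM (CFA) with LacZ, 36.6 and 42.8 FPKM with HDAC4 wt, and 36.0 and 34.1 FPKM with HDAC4 3SA. Its LacZ saline value is the lowest of the 6, and its log2 change was 0.46 with LacZ, 0.22 with HDAC4 wt and -0.079 with HDAC4 3SA. Col1a1, which codes for the partner chain and lies on chromosome 11 from 94936238 to 94953042, had saline values of 12.3, 17.6 and 15.8 FPKM with LacZ, HDAC4 wt and HDAC4 3SA, and CFA values of 19.0, 23.2 and 19.1 FPKM in that order. All 3 vectors had a higher value after CFA, with log2 changes of 0.62 with LacZ, 0.40 with HDAC4 wt and 0.27 with HDAC4 3SA. Col3a1, on chromosome 1 from 45311537 to 45349713, had 11.0 FPKM with LacZ and saline against 14.8 FPKM with CFA, 19.0 against 21.1 FPKM with HDAC4 wt, and 15.5 against 15.5 FPKM with HDAC4 3SA. Here the log2 change was 0.42 with LacZ, 0.15 with HDAC4 wt and -0.0014 with HDAC4 3SA, so that the CFA and saline values of HDAC4 3SA mice were the same to within 0.1 FPKM.

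Type V collagen, which starts and limits the growth of type I fibrils, had its largest change with LacZ too, at lower levels. Col5a1 had log2 changes of 0.41 with LacZ, 0.12 with HDAC4 wt and 0.18 with HDAC4 3SA, with a mean of 2.23 FPKM. Col5a3, which went from 2.67 to 3.73 FPKM in LacZ mice, had 0.47 with LacZ, 0.078 with HDAC4 wt and 0.044 with HDAC4 3SA. Col5a2, which lies 24.5 kb from Col3a1 on chromosome 1, changed from 2.75 to 3.30 FPKM with LacZ and 4.46 to 3.96 FPKM with HDAC4 wt, log2 changes of 0.25 and -0.17. Of the 11 fibrillar genes, 5 (Col1a1, Col1a2, Col2a1, Col3a1 and Col5a3) had their largest change in LacZ mice, a smaller one in HDAC4 wt mice and the smallest in HDAC4 3SA mice. The opposite order was found for 0 of them, and among all genes 20.5% and 21.2% had these orders. The first order was not particular to fibrillar genes. It held for 9 of 17 other genes, with 4 in the opposite order, and for 1 of 6 basement membrane genes, with 2. Of all 34 kept collagen genes, 15 had the first order and 6 the opposite one.

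The fibrillar collagens known best from cartilage and bone did not all move one way with LacZ, where Col11a1, Col24a1 and Col27a1 had lower and Col2a1 and Col11a2 higher values after CFA. Col11a2, a type XI chain, had 6.40 (saline) and 6.44 FPKM (CFA) with LacZ, 6.91 and 7.90 FPKM with HDAC4 wt, and 6.32 and 7.03 FPKM with HDAC4 3SA, with log2 changes between 0.0097 and 0.19. Col11a1 had a mean of 4.56 FPKM and log2 changes of -0.08 with LacZ, -0.16 with HDAC4 wt and 0.053 with HDAC4 3SA. Col2a1, the main collagen of cartilage, had log2 changes of 0.29 with LacZ, 0.21 with HDAC4 wt and 0.10 with HDAC4 3SA and was near 1 FPKM in every group (lowest 0.859 FPKM, highest 1.12 FPKM). Col24a1 changed from 0.950 to 0.597 FPKM with HDAC4 wt, a log2 change of -0.59, and lay between 0.539 and 0.763 FPKM in the other vectors. Col27a1 had log2 changes of -0.02 with LacZ, -0.12 with HDAC4 wt and 0.28 with HDAC4 3SA.

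**Figure D3:**
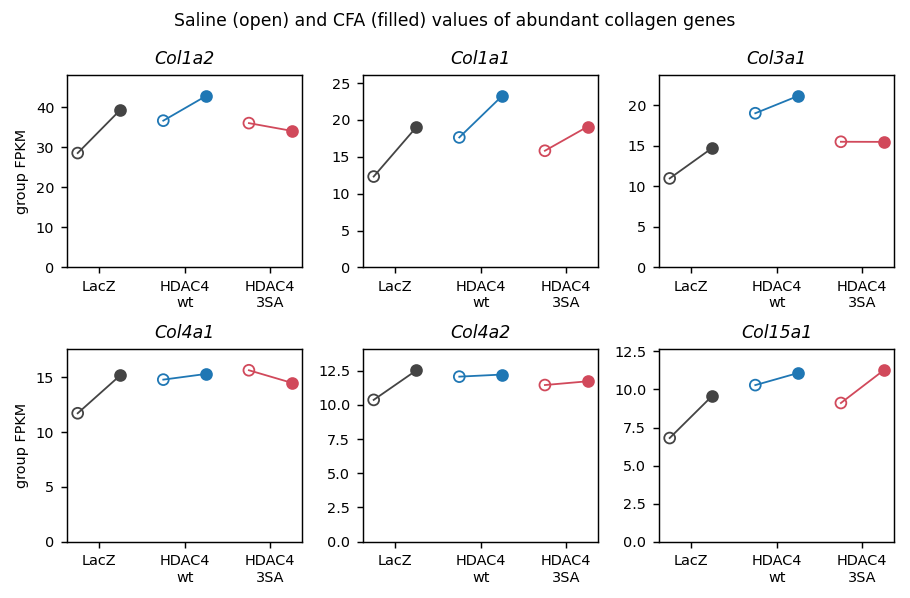
Pooled FPKM of 6 abundant collagen genes after saline (open) and CFA (filled), joined by a line for each vector, on axes that start at 0. The open LacZ point is the lowest of each panel. The LacZ line is steeper than the HDAC4 wt and HDAC4 3SA lines in each panel, less clearly so for Col1a1 and Col15a1.

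Among basement membrane collagens, Col4a1 and Col4a2 code for the chains of the type IV network that all vessels carry, and they were the most abundant. Col4a1 had saline values of 11.7, 14.8 and 15.6 FPKM with LacZ, HDAC4 wt and HDAC4 3SA, and CFA values of 15.2, 15.3 and 14.5 FPKM in that order. Col4a2 had 10.4 FPKM with LacZ and saline against 12.5 FPKM with CFA, 12.1 against 12.2 FPKM with HDAC4 wt, and 11.5 against 11.7 FPKM with HDAC4 3SA. The 5 values of each gene other than LacZ saline lay close together, from 14.5 to 15.6 FPKM for Col4a1 and from 11.5 to 12.5 FPKM for Col4a2. The log2 change was 0.37 with LacZ, 0.05 with HDAC4 wt and -0.11 with HDAC4 3SA for Col4a1 and 0.27 with LacZ, 0.018 with HDAC4 wt and 0.034 with HDAC4 3SA for Col4a2. Col4a5 and Col4a6, chains of the network found in fewer basement membranes, had another order. Col4a5 had 1.56 (saline) and 1.55 FPKM (CFA) with LacZ, 2.45 and 2.65 FPKM with HDAC4 wt, and 1.80 and 2.60 FPKM with HDAC4 3SA. Col4a6 had saline values of 0.446, 0.705 and 0.514 FPKM with LacZ, HDAC4 wt and HDAC4 3SA, and CFA values of 0.452, 0.755 and 0.728 FPKM in that order. For both, saline and CFA values were nearly equal in LacZ mice, and the largest log2 change was in HDAC4 3SA mice, 0.505 for Col4a5 and 0.43 for Col4a6.

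The chain genes of type IV lie head to head, so that partners are transcribed away from a common stretch of DNA. In RefSeq (GRCm38.p6), the start sites of Col4a1 and Col4a2 on chromosome 8 are 21 bp apart, and those of Col4a5 and Col4a6 on the X chromosome 1343 bp apart. The FPKM ratio of Col4a5 to Col4a6 lay between 3.42 and 3.57 in the 6 groups although Col4a5 varied 1.71-fold and Col4a6 1.70-fold between groups. That of Col4a1 to Col4a2 lay between 1.13 and 1.37, while Col4a1 itself varied 1.33-fold and Col4a2 1.21-fold, so this ratio was no steadier than Col4a2. Of 11 pairs of partner or neighbor chains, these had the smallest ranges, the highest ratio being 1.04 and 1.21 times the lowest. The ratio of Col1a2 to Col1a1, whose genes are on different chromosomes, varied 1.30-fold, and that of Col9a3 to Col9a2 varied 2.42-fold, the widest of the 11.

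**Figure D4:**
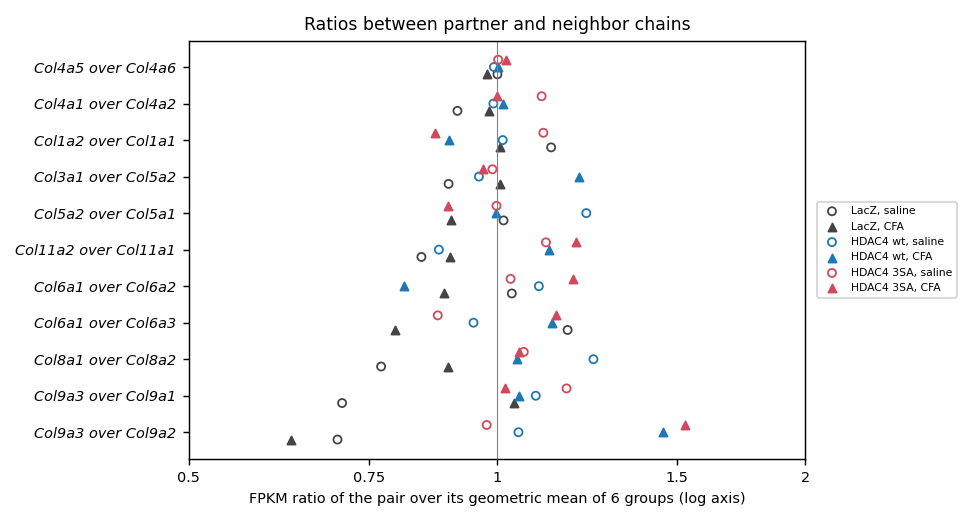
FPKM ratio of 11 pairs of collagen chains in each of the 6 groups, divided by the geometric mean of the pair, on a log axis; colors mark the vector, open circles saline and filled triangles CFA. The points of Col4a5 over Col4a6 almost coincide (highest ratio 1.04 times the lowest), and those of Col9a3 over Col9a2 are the farthest apart.

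The promoter windows of these 4 genes are shown because of their head-to-head arrangement, and those of Col1a2 and Col3a1 because they are the most abundant fibrillar genes with a window in the reference. Each window runs 5′ to 3′ from 250 bases before to 50 bases after the RefSeq start site of GRCm38.p6. Capitals mark the motifs CCAAT and, for the GC box, GGGCGG, as well as the TATA box, TATAAA, on either strand, so a motif of the reverse strand appears as its reverse complement.
Col4a1 (chr8:11312777-11313076, minus strand): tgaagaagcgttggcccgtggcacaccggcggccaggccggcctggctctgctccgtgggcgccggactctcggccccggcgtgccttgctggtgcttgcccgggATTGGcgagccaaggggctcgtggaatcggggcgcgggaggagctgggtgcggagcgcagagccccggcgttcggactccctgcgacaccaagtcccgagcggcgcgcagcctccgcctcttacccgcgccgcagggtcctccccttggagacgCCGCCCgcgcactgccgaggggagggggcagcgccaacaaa
Col4a2 (chr8:11312555-11312854, plus strand): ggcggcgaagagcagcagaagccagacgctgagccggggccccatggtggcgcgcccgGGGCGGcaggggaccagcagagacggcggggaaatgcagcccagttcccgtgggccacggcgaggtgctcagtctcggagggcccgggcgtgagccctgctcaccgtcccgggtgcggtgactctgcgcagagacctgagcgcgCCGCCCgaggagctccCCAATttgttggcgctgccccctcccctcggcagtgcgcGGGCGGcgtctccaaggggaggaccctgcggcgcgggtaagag
Col4a5 (chrX:141475169-141475468, plus strand): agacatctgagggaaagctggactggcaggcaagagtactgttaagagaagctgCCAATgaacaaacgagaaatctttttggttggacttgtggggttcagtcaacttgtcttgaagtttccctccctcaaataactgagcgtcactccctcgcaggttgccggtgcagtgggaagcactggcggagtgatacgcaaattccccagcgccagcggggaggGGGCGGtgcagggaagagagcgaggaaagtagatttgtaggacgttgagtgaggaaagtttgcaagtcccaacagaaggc
Col4a6 (chrX:141474027-141474326, minus strand): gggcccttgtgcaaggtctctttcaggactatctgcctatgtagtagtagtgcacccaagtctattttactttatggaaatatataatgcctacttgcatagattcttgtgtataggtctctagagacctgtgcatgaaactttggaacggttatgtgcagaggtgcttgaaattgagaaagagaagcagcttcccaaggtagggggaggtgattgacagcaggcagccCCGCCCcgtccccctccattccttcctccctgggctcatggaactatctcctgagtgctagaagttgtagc
Col1a2 (chr6:4505368-4505667, plus strand): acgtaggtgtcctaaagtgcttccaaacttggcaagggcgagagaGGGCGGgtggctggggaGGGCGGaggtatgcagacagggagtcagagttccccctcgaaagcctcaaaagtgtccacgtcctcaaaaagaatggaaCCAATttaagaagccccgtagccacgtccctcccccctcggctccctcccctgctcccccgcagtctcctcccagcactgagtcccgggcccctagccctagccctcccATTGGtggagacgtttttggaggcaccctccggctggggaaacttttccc
Col3a1 (chr1:45311288-45311587, plus strand): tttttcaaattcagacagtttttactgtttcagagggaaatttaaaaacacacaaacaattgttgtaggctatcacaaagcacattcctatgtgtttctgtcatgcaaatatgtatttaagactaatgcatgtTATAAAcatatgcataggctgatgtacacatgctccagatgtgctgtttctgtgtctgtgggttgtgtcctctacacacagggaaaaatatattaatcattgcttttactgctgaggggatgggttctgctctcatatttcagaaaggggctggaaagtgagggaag

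The windows of Col4a1 and Col4a2 overlap on opposite strands and hold CCAAT as well as GGGCGG. Those of Col4a5 and Col4a6 do not overlap, and each holds GGGCGG, with CCAAT in that of Col4a5 alone. Col1a2 has CCAAT and GGGCGG, and Col3a1 holds TATAAA alone. Windows were found for 32 of the 41 collagen genes, 35 windows in all. Of these, 23 hold GGGCGG, 12 hold CCAAT and 3 hold TATAAA, while the share over all 32851 windows of the same length is 35.7%, 37.4% and 13.6%. These matches describe the letters of the windows.

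The multiplexins, collagens XV and XVIII, link basement membranes to the matrix around them. Col15a1, on chromosome 4, had 6.81 FPKM with LacZ and saline against 9.59 FPKM with CFA, 10.3 against 11.1 FPKM with HDAC4 wt, and 9.11 against 11.3 FPKM with HDAC4 3SA. All 3 CFA values exceed the saline value of the same vector, with log2 changes of 0.49 with LacZ, 0.11 with HDAC4 wt and 0.30 with HDAC4 3SA. Col18a1, whose C-terminal fragment is endostatin, had 2.90 (saline) and 3.85 FPKM (CFA) with LacZ, 5.89 and 6.50 FPKM with HDAC4 wt, and 4.81 and 5.91 FPKM with HDAC4 3SA. Its 2 LacZ values are the lowest of the 6, and the log2 changes were 0.39 with LacZ, 0.14 with HDAC4 wt and 0.29 with HDAC4 3SA.

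Of 3 beaded-filament genes over the minimum, 1 passed the threshold upward with LacZ (Col6a3), 1 with HDAC4 wt (Col6a2) and 0 with HDAC4 3SA. Of 2 short-chain genes, 1 passed it upward with LacZ (Col8a1), 1 with HDAC4 wt (Col8a2) and 0 with HDAC4 3SA. Among all genes 4.43%, 4.75% and 8.81% did so in that order of vectors. Type VI collagen forms filaments around fibroblasts, nerves and muscle fibers. Col6a3 had saline values of 0.905, 1.70 and 1.27 FPKM with LacZ, HDAC4 wt and HDAC4 3SA, and CFA values of 1.59, 1.75 and 1.15 FPKM in that order. Its LacZ saline value is the lowest, and its log2 change of 0.75 in LacZ mice is the largest of any kept collagen gene there, against 0.033 with HDAC4 wt and -0.14 with HDAC4 3SA. Col6a2 had 3.84 FPKM with LacZ and saline against 5.34 FPKM with CFA, 5.51 against 9.13 FPKM with HDAC4 wt, and 4.05 against 4.15 FPKM with HDAC4 3SA, with log2 changes of 0.47 with LacZ, 0.72 with HDAC4 wt and 0.035 with HDAC4 3SA. Its partner Col6a1, 85.2 kb away on chromosome 10, had log2 changes of 0.25 with LacZ, 0.29 with HDAC4 wt and 0.23 with HDAC4 3SA at a mean of 7.61 FPKM. Type VIII collagen is found in vessel walls and under the endothelium of the cornea. Col8a1 had 1.20 (saline) and 1.80 FPKM (CFA) with LacZ, 2.18 and 2.80 FPKM with HDAC4 wt, and 1.60 and 1.61 FPKM with HDAC4 3SA, and log2 changes of 0.55 with LacZ, 0.35 with HDAC4 wt and 0.00069 with HDAC4 3SA. Col8a2 had saline values of 1.37, 1.55 and 1.33 FPKM with LacZ, HDAC4 wt and HDAC4 3SA, and CFA values of 1.77, 2.37 and 1.35 FPKM in that order, and log2 changes of 0.35 with LacZ, 0.58 with HDAC4 wt and 0.016 with HDAC4 3SA. Both type VIII genes were thus nearly equal after saline and CFA in HDAC4 3SA mice.

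Collagens that coat fibrils (FACIT collagens) went different ways in HDAC4 3SA mice. Col12a1, a type XII chain of dense connective tissue, had 2.08 FPKM with LacZ and saline against 2.39 FPKM with CFA, 2.58 against 3.63 FPKM with HDAC4 wt, and 2.58 against 4.20 FPKM with HDAC4 3SA, and its log2 changes were 0.19 with LacZ, 0.48 with HDAC4 wt and 0.69 with HDAC4 3SA. Col14a1, a related chain, had 2.37 (saline) and 2.97 FPKM (CFA) with LacZ, 2.38 and 2.20 FPKM with HDAC4 wt, and 2.79 and 1.80 FPKM with HDAC4 3SA, and its log2 changes of 0.31 with LacZ, -0.11 with HDAC4 wt and -0.60 with HDAC4 3SA run in the opposite order. Col16a1 went from 6.31 to 8.86 FPKM in HDAC4 3SA mice, a log2 change of 0.48, against 0.028 with LacZ and 0.065 with HDAC4 wt. The type IX genes, which code for a cartilage heterotrimer, did not move together. Col9a3 had saline values of 7.07, 13.7 and 12.1 FPKM with LacZ, HDAC4 wt and HDAC4 3SA, and CFA values of 7.65, 16.4 and 16.2 FPKM in that order, and each LacZ value lies below all 4 values of the other vectors. Col9a2 had log2 changes of 0.26 with LacZ, -0.21 with HDAC4 wt and -0.22 with HDAC4 3SA and Col9a3 of 0.11 with LacZ, 0.26 with HDAC4 wt and 0.42 with HDAC4 3SA. Col9a1 changed from 0.534 to 0.393 FPKM with LacZ (log2 change -0.36, the lowest of the 34 genes) and 0.554 to 0.852 FPKM with HDAC4 3SA (log2 change 0.54). The locus read for Col9a1 covers 33.4% of the exon bases that GENCODE M21 gives the gene. Col22a1, a collagen of muscle-tendon junctions, had a mean of 0.892 FPKM and log2 changes of 0.22 with LacZ, -0.18 with HDAC4 wt and -0.42 with HDAC4 3SA. With its further locus summed these were -0.056 with LacZ, 0.035 with HDAC4 wt and -0.12 with HDAC4 3SA, which turns the direction with LacZ and HDAC4 wt.

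Transmembrane collagens, which neurons and other cells carry on their surface, had 1 of 3 kept genes past the threshold. This was Col25a1, downward with HDAC4 3SA, where 3.23% of all genes were lower. Col23a1, the most abundant of the collagens outside the fibrillar and basement membrane classes, had 13.9 FPKM with LacZ and saline against 15.1 FPKM with CFA, 16.4 against 14.8 FPKM with HDAC4 wt, and 15.0 against 13.0 FPKM with HDAC4 3SA. Col25a1, a collagen needed for motor axons to innervate muscle, had 8.82 (saline) and 8.41 FPKM (CFA) with LacZ, 7.89 and 6.52 FPKM with HDAC4 wt, and 7.86 and 5.20 FPKM with HDAC4 3SA. Its value was lower after CFA in all 3 vectors, with log2 changes of -0.068 with LacZ, -0.27 with HDAC4 wt and -0.59 with HDAC4 3SA. Col13a1, a collagen of the neuromuscular junction, had log2 changes of -0.091 with LacZ, -0.19 with HDAC4 wt and 0.38 with HDAC4 3SA at a mean of 0.788 FPKM. Beside this, the 8 neuronal markers had a median log2 change of -0.064, -0.19 and -0.39 for LacZ, HDAC4 wt and HDAC4 3SA, and their part in these values was not tested.

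At the loci read, Col28a1 and Col26a1 had higher CFA than saline values with LacZ and lower ones with both HDAC4 vectors, and for Col28a1 the direction with HDAC4 wt depends on the locus. Col28a1, a collagen of peripheral nerve, had saline values of 1.02, 2.12 and 2.23 FPKM with LacZ, HDAC4 wt and HDAC4 3SA, and CFA values of 1.21, 1.62 and 1.56 FPKM in that order, log2 changes of 0.23 with LacZ, -0.37 with HDAC4 wt and -0.49 with HDAC4 3SA. Its saline value at this locus was 2.09 times that of LacZ mice with HDAC4 wt and 2.20 times with HDAC4 3SA. A further locus of the name was read separately. With both loci summed, Col28a1 had log2 changes of 0.40 with LacZ, 0.028 with HDAC4 wt and -0.52 with HDAC4 3SA, so that the direction with HDAC4 wt turned and the threshold was passed with HDAC4 3SA, and the saline ratios were 1.79 and 1.92. Col26a1 had 1.83 FPKM with LacZ and saline against 2.31 FPKM with CFA, 1.99 against 1.55 FPKM with HDAC4 wt, and 2.10 against 1.42 FPKM with HDAC4 3SA, log2 changes of 0.32 with LacZ, -0.35 with HDAC4 wt and -0.53 with HDAC4 3SA, and with its further locus summed the last was -0.45, no longer past the threshold. Schwann cell markers moved in the same order. The median log2 change of 9 such genes was 0.59, -0.025 and -0.53, with 6 of 9 past the threshold upward in LacZ mice and 5 of 9 downward in HDAC4 3SA mice (against 4.43% and 3.23% of all genes). Their summed level ranged from 1115 FPKM in HDAC4 3SA mice after CFA to 1811 FPKM in LacZ mice after CFA, and none is at 0. Their part in the collagen values was not tested.

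Gene by gene, HDAC4 3SA mice had a lower log2 change than LacZ mice for 24 of 34 collagen genes (70.6%, against 48.9% of all genes), with a median difference of -0.24. The same held with HDAC4 wt against LacZ for 24 of 34 as well (against 51.4% of all genes), with a median difference of -0.23. Both counts read the LacZ values, so they are not independent of each other. Between HDAC4 3SA and HDAC4 wt mice, 19 of 34 were lower in HDAC4 3SA mice (against 47.9% of all genes) and the median difference was -0.037. By class, the log2 change was lower with HDAC4 3SA than with LacZ for 8 of 11 fibrillar, 4 of 6 basement membrane and 12 of 17 other genes, and lower with HDAC4 wt than with LacZ for 10, 4 and 10 of them. With HDAC4 3SA against HDAC4 wt the counts were 6, 1 and 12.

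The saline groups were not level with each other. After saline, 33 of 34 collagen genes had a higher value in HDAC4 wt than in LacZ mice, with a median ratio of 1.37, and 28 of 34 in HDAC4 3SA mice, with a median ratio of 1.23. Which locus is read matters for Col22a1, whose ratios are 1.21 and 1.32 at the locus read and 0.732 and 0.663 with its loci summed. Over all genes the median ratios were 1.05 and 1.04, and 59.2% and 59.6% were higher than in LacZ mice. After CFA the median ratio of the collagen genes was 1.21 for HDAC4 wt and 1.03 for HDAC4 3SA over LacZ mice, against 1.03 and 1.03 for all genes. For 21 of the 34 collagen genes (61.8%), and for 8 of the 10 most abundant, the LacZ saline value was the lowest of the 6, as it was for 30.4% of all genes. Some markers of other cell types moved along and others did not. After saline, the 8 neuronal markers summed to 1988, 1404 and 1499.7 FPKM with LacZ, HDAC4 wt and HDAC4 3SA. Snap25 alone took 1227, 795 and 861 FPKM of these sums. Tubb3, the next most abundant, had 247, 172 and 197 FPKM, whereas Rbfox3 had 71.6, 68.0 and 73.7 FPKM and Syt1 86.2, 90.8 and 84.6 FPKM. The neuronal markers were thus not uniformly lower than in LacZ mice. Leptomeningeal fibroblast markers summed to 68.1, 101 and 75.7 FPKM and Schwann cell markers to 1259.5, 1257 and 1639 FPKM. Vtn alone took 49.6, 74.7 and 58.0 FPKM of the leptomeningeal sums. Of the next most abundant genes of that list, Aldh1a2 had 6.29, 11.1 and 6.99 FPKM and Slc6a13 5.64, 7.30 and 4.89 FPKM. The direction of HDAC4 3SA against LacZ thus differed between genes of the list. The sums of endothelial and mural markers were 95.8, 114 and 111 FPKM and 58.0, 71.4 and 68.5 FPKM in that order. The astrocyte gene Gfap had 389, 807 and 805 FPKM and Aqp4 129, 196 and 181 FPKM, whereas Mog and Olig1 of the oligodendrocyte lineage had 102, 108 and 101 FPKM and 92.4, 93.9 and 92.4 FPKM. The part of these cell types in the collagen ratios was not tested. Col1a1, for example, had 19.0 FPKM after CFA in LacZ mice and 19.1 FPKM in HDAC4 3SA mice, but 12.3 and 15.8 FPKM after saline. Since each vector was normalized on its own and the mice of a group were pooled, vector, run and mice cannot be told apart in these ratios.

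Markers of the cell types that make collagen were read beside these values. Of 10 genes typical of leptomeningeal fibroblasts, 8 were kept, and their median log2 change was 0.41, 0.10 and -0.034 for LacZ, HDAC4 wt and HDAC4 3SA, the same order as that of the fibrillar genes. With LacZ, 3 of 8 passed the threshold upward, with HDAC4 wt 2 and with HDAC4 3SA 0, against 4.43%, 4.75% and 8.81% of all genes. Crabp2, which binds retinoic acid, had the largest change of the 8 with LacZ, from 0.866 to 3.28 FPKM, with 1.70 to 3.02 FPKM with HDAC4 wt and 1.04 to 1.14 FPKM with HDAC4 3SA. Ranbp3l went another way, with log2 changes of -0.28 with LacZ, 0.72 with HDAC4 wt and 0.30 with HDAC4 3SA. The summed level of the list ranged from 68.1 FPKM in LacZ mice after saline to 101 FPKM in HDAC4 wt mice after saline, and no gene was at 0. Vtn took 49.6 and 74.7 FPKM of these sums, so the range mostly follows that gene. Endothelial markers had medians of -0.00041, 0.16 and 0.19 over 9 genes and mural cell markers 0.029, 0.22 and 0.32 over 9 genes. Skeletal muscle markers, which can enter with tissue around the cord, had medians of 1.09, -1.42 and -0.36 over 9 genes, and Myh1 is listed at 0 in HDAC4 wt mice after saline. All 10 muscle genes summed to between 42.9 and 129.6 FPKM, of which Pvalb, also made by spinal neurons, took 38.0 to 56.0 FPKM. The 9 without Pvalb summed to 23.1 (saline) and 49.0 FPKM (CFA) with LacZ, 9.76 and 4.90 FPKM with HDAC4 wt, and 76.3 and 65.0 FPKM with HDAC4 3SA, a range of 15.6-fold. Markers of cartilage, bone and tendon had medians of -0.086, 0.095 and -0.027 over 7 genes, with Comp changing from 0.278 to 3.85 FPKM with HDAC4 wt. The part of fibroblast, endothelial, mural, Schwann cell or muscle content in the collagen values was not tested.

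The enzymes and partners of collagens were read in the same way. Of 66 genes in 5 lists, 55 were kept, and 3 passed the threshold upward and 0 downward with LacZ, 3 and 0 with HDAC4 wt, and 2 and 4 with HDAC4 3SA. Among all genes 4.43% and 2.24%, 4.75% and 3.06%, and 8.81% and 3.23% did so, so that 3 of 55 is near the upward share with LacZ and HDAC4 wt. The 18 genes for chain modification and folding had 0 past the threshold in any vector, with median log2 changes of 0.095, 0.13 and 0.21. Ppib, a prolyl isomerase and the most abundant of them, had 73.0 (saline) and 79.7 FPKM (CFA) with LacZ, 93.4 and 105 FPKM with HDAC4 wt, and 84.5 and 97.8 FPKM with HDAC4 3SA, and Serpinh1, the chaperone of procollagen, had log2 changes of 0.23 with LacZ, 0.058 with HDAC4 wt and 0.17 with HDAC4 3SA. Among 10 kept genes for propeptide cleavage and crosslinking, Lox, the enzyme that starts collagen crosslinks, had saline values of 1.89, 2.23 and 3.03 FPKM with LacZ, HDAC4 wt and HDAC4 3SA, and CFA values of 3.48, 3.20 and 3.78 FPKM in that order. It passed the threshold in LacZ and HDAC4 wt mice, with log2 changes of 0.85 with LacZ, 0.51 with HDAC4 wt and 0.31 with HDAC4 3SA, and its 3 CFA values lie above its 3 saline values. Bmp1, which removes the C-propeptide and was the most abundant of this list, had log2 changes of -0.021 with LacZ, 0.088 with HDAC4 wt and 0.42 with HDAC4 3SA.

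The 9 proteins that bind fibrils had median log2 changes of 0.37, 0.17 and 0.12. Sparc, the most abundant, lay between 376 and 435 FPKM. Ogn (osteoglycin) passed the threshold in opposite directions, from 31.2 to 45.0 FPKM with LacZ (log2 change 0.53) and 43.5 to 27.5 FPKM with HDAC4 3SA (log2 change -0.66). Bgn (biglycan) had 10.3 FPKM with LacZ and saline against 13.4 FPKM with CFA, 21.5 against 32.7 FPKM with HDAC4 wt, and 13.9 against 19.8 FPKM with HDAC4 3SA, past the threshold upward in HDAC4 wt and HDAC4 3SA mice. Basement membrane partners had 0 of 12 kept genes past the threshold in any vector. Among all genes 4.43%, 4.75% and 8.81% passed it upward and 2.24%, 3.06% and 3.23% downward with LacZ, HDAC4 wt and HDAC4 3SA. The median log2 changes of the 12 were 0.21, 0.032 and 0.037 in that order. Higher values after CFA were found for 11, 7 and 6 of the 12, against 53.0%, 51.1% and 52.9% of all genes. Hspg2 (perlecan) came closest in LacZ mice, from 4.37 to 6.17 FPKM, and Agrn (agrin), the most abundant, lay between 21.8 and 25.4 FPKM. Of 6 kept collagen receptors, Lair1, an inhibitory receptor of immune cells, passed upward in HDAC4 3SA mice (3.91 to 6.05 FPKM), as did 8.81% of all genes. Ddr1, a receptor kinase for collagen and the most abundant, had log2 changes of 0.11 with LacZ, 0.28 with HDAC4 wt and 0.38 with HDAC4 3SA.

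At the loci read, the 7 collagen genes below the minimum lay between 0 and 0.666 FPKM in every group and enter no count. Col19a1 reached 0.666 FPKM in LacZ mice after saline. With its 3 loci summed it had 1.70 (saline) and 1.62 FPKM (CFA) with LacZ and 0.905 and 0.960 FPKM with HDAC4 wt. With HDAC4 3SA the sums were 0.761 and 0.709 FPKM. Summed in this way Col19a1 exceeds the minimum, and its saline ratios over LacZ are 0.533 with HDAC4 wt and 0.448 with HDAC4 3SA. Col7a1, the collagen of anchoring fibrils in skin, reached 0.663 FPKM in HDAC4 3SA mice after CFA against 0.220 FPKM after saline. Col4a3, Col4a4, Col6a5 and Col6a6 stayed at or below 0.411 FPKM, and Col6a5 is listed at 0 in LacZ mice after saline. Their loci cover little of the annotated genes, from 3.93% of exon bases for Col4a4 to 16.1% for Col4a3. Col6a4 carries the same identifier at places that do not overlap, on chromosome 9 at 106075226 to 106077112 in the LacZ and HDAC4 3SA tables and at 106013489 to 106020650 in the HDAC4 wt table. It had 0.400 (saline) and 0.259 FPKM (CFA) with LacZ, 0.283 and 0.150 FPKM with HDAC4 wt, and 0.167 and 0.343 FPKM with HDAC4 3SA, and enters the class sums but no count, median or comparison of log2 changes. Of the 41 loci, 33 cover over 90% of the annotated exon bases. More than 1 locus carries the name of 7 collagen genes. The further locus of Col28a1 had a mean of 0.735 FPKM and that of Col22a1 0.496 FPKM, the highest of these, and whether the counting used strand, which separates such loci, is not given in the sources used here. Col4a1 and Col4a2 are listed at 1 common place, since their transcripts overlap at the start.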

How the data were processed

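Total RNA from dorsal spinal cord of 18 mice was sequenced by the authors as strand-specific libraries of poly-A RNA, mapped with Bowtie and TopHat to the mouse genome (mm10/GRCm38) and quantified with Cufflinks and Cuffdiff against Ensembl genes. Each vector has its own Cuffdiff table of 34579 loci. The FPKM values that the authors deposited are 1 estimate per group, pooled over 3 mice and scaled within each vector. The further columns hold the authors' fold changes, test statistics, p-values and q-values, and were not used. The methods state only a minimum number of reads for all libraries, and the reads behind each value are not in the tables used here, so no counting interval is given.

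Loci were matched between tables by identifier, and 386 whose places do not overlap were left out, except that Col6a4 was listed as a member and entered the class sums. Of 18182 singly named genes, 15741 had a mean of at least 0.5 FPKM over the 6 group values. Log2 changes were computed with 0.1 FPKM added, in Python 3.11.15 with pandas 2.3.3, and the code was tested on simulated data. Coordinates are those of the tables, whose starts often lie 1 base before the annotated start. Promoter windows are RefSeq's (GRCm38.p6) and exons GENCODE's (M21). Protein sequences were not used here.

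Genes named are the 10 most abundant collagen genes, the 5 largest changes in each direction per vector, all type IV chains, partner and neighbor chains, the most abundant gene of each pathway list and those past the threshold in at least 2 vectors. The marker genes Crabp2, Ranbp3l, Vtn, Aldh1a2, Slc6a13, Comp, Pvalb, Snap25, Tubb3, Rbfox3, Syt1, Gfap, Aqp4, Mog and Olig1 were chosen after their values were seen. So were Serpinh1, Hspg2 and Lair1 and the remaining members. The members and lists were chosen with earlier results of these data known. Alternatives varied the FPKM added, the minimum level, the threshold, the locus read per name, the centring and the basement membrane class.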

Additional observations from a re-analysis of the deposited data

How the results depend on the processing

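Of 102 values under alternative settings, 86 moved by less than 0.1 (medians of the log2 change) or by at most 1.5 times (counts), and 16 moved further. With 1 FPKM added, the number of higher collagen genes was 1 with LacZ, 1 with HDAC4 wt and 1 with HDAC4 3SA, and that of lower genes 0 with HDAC4 wt and 1 with HDAC4 3SA. With a threshold of 1 on the log2 scale, 0 genes were higher and 0 lower in all 3 vectors. Without a minimum level, 2 genes were lower in HDAC4 wt and 5 higher in HDAC4 3SA mice, and the basement membrane median was 0.15 in LacZ and 0.17 in HDAC4 3SA mice. With a minimum of 1 FPKM, 0 genes were lower in HDAC4 wt mice. With type IV chains alone as basement membrane, the LacZ median was 0.14. The median of the other collagens in HDAC4 3SA mice lay between -0.067 and 0.016 over the settings and had both signs, and no other median changed sign. The fibrillar median lay between 0.20 and 0.35 with LacZ, between 0.086 and 0.14 with HDAC4 wt, and between 0.043 and 0.077 with HDAC4 3SA. Subtracting the median change of genes that average over 5 FPKM in the table of each vector left 2 higher genes with HDAC4 3SA, without Col4a5 (log2 change 0.499). Summing the loci of a name left each count as it was, then over 35 genes, since Col19a1 reached the minimum. With HDAC4 3SA, however, Col28a1 took the place of Col26a1 among the 3 lower genes. No paired analysis was possible because the tables hold 1 pooled value per group and none per mouse, and for the same reason no mouse could be left out.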
